A study of Saccharomyces cerevisiae BY4741 with 66 samples.

Results

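The 10 genes described here code for amino acid permeases of the plasma membrane of budding yeast, Saccharomyces cerevisiae, and were taken by gene identifier from the deposited tables of values per gene. All 10 were present among the 6605 features of those tables. In a ribosome profiling table such a value measures how many ribosomes were translating the gene's mRNA, not how much transporter reached the cell surface. Each library was made from a bulk culture, so fewer cells that translated a gene and less translation per cell cannot be told apart.

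Amino acid permeases are membrane proteins that carry amino acids into the cell together with protons. Yeast holds many of them, some with a broad range of substrates and some that serve 1 or a few amino acids, and it adjusts their supply to the nutrients at hand. Amino acids outside the cell are sensed by the SPS complex of Ssy1, Ptr3 and Ssy5, which activates the transcription factors Stp1 and Stp2 and through them several permease genes. Good nitrogen sources repress another set, GAP1 among them, by nitrogen catabolite repression, in which the GATA factors Gln3 and Gat1 are the activators. New permeases need the chaperone Shr3 to leave the endoplasmic reticulum, and permeases at the surface are removed after ubiquitylation guided by arrestin-like adaptors.

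The first 4 members have broad or mixed substrate ranges. GAP1 (YKR039W, chromosome XI, 515063 to 516871, plus strand) is the general amino acid permease. AGP1 (YCL025C, chromosome III, 76018 to 77919, minus strand) is a broad, low-affinity permease. GNP1 (YDR508C, chromosome IV, 1466453 to 1468444, minus strand) carries glutamine and several other amino acids. DIP5 (YPL265W, chromosome XVI, 41043 to 42869, plus strand) carries glutamate and aspartate.

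The next 4 members serve branched-chain and aromatic amino acids. BAP2 (YBR068C, chromosome II, 373861 to 375690, minus strand) and BAP3 (YDR046C, chromosome IV, 548762 to 550576, minus strand) take up leucine, isoleucine and valine. TAT1 (YBR069C, chromosome II, 376574 to 378433, minus strand) carries tyrosine and tryptophan and lies beside BAP2. TAT2 (YOL020W, chromosome XV, 286172 to 287950, plus strand) is the high-affinity tryptophan permease. The other 2 are narrow: MUP1 (YGR055W, chromosome VII, 599417 to 601141, plus strand) is the high-affinity methionine permease, and CAN1 (YEL063C, chromosome V, 31694 to 33466, minus strand) is the arginine permease. Coordinates are those of the deposited tables, whose genome build is not given in the sources used here. AGP1 and GNP1 are paralogs, as are BAP2 and BAP3, and reads from stretches that such a pair shares could have been counted for either gene.

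The study isolated ribosomes through GFP-tagged subunits of protein complexes, to ask which subunits meet their partners during translation, and sequenced footprints of all ribosomes (totals) beside those of the ribosomes that came down with GFP antibody beads (IPs). Of 66 libraries, 50 had a table per gene, 25 totals and 25 IPs from 15 strains, which the labels place in the BY4741 background and which were grown at 30 °C with shaking at 150 rpm. YPD, a rich medium, gave 17 totals, a pair each from strains with GFP on FAS1, FAS2, GUS1, MES1, ARC1, PFK1 or PFK2 and 1 each from strains with GFP on SUI2, SUI3 or GCD11. SD-trp, synthetic medium without tryptophan, gave 3 totals, 2 from TRP2-GFP and 1 from TRP3-GFP. SD-arg, synthetic medium without arginine, gave 1 total, from CPA1-GFP. A medium with fatty acids gave 4 totals from strains that lack part of the MPT domain of fatty acid synthase. In 2 of them GFP-tagged FAS1 lacked a stretch that ends at base 6153 (FAS1dMPT-GFP), and in the other 2 FAS2 lacked bases 1 to 282 beside an intact FAS1-GFP (FAS1-GFP FAS2dMPT). The labels' word for the change of medium is "supplanted" and its basal medium is not given. No strain was grown in 2 media, so medium and strain cannot be told apart in any comparison here. The labels do not say that numbered replicates were separate cultures, so p-values measure the spread between libraries, which may be technical.

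Totals held 1.74 M to 55.9 M reads as implied by the steps between low values, and IPs 0.544 M to 31.7 M reads. The fewest reads on a member in any total was 11, for GAP1. The mating-type genes showed more than 1 background: 6 genes active in MATa cells, the mating type of BY4741, had the higher sum in 19 of 25 totals, and 3 genes active in MATalpha cells had it in the other 6. These 6 were FAS1-GFP total 1, both FAS2-GFP totals, FAS1-GFP FAS2dMPT total 1 and both TRP2-GFP totals. In YPD totals the MATa sum ranged from 3.81 to 1205 RPM (reads of the gene, scaled to a set library size) and the MATalpha sum from 0.337 to 1908 RPM. LEU2 and URA3, which BY4741 lacks, stayed below 1 RPM in all totals, but MET17, which it also lacks, had 336 to 971 RPM in the 6 totals with the higher MATalpha sum and at most 43.2 RPM in the others. HIS3, also counted as deleted in BY4741, had 41.6 to 146.0 RPM over all 25 totals. LYS2, which BY4741 retains, had at most 7.85 RPM in those 6 totals and 236 to 539 RPM in the others. The library labelled FAS1-GFP total 2 stood apart from its partner, with MATa genes at 943 RPM against 5.02 RPM, and was most like TRP3-GFP total 1 over all genes (Pearson r = 0.995). In TRP2-GFP the totals held 8.41 and 15.7 RPM of MATa genes, and the IPs of the same strain 514 and 518 RPM. Results that rest on FAS1-GFP total 2 are given with and without it, and those in SD-trp totals with and without TRP2-GFP. IP over total in TRP2-GFP has no value without its totals.

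GAP1 varied most among the 10, by 26.0 times between the lowest and the highest of the 25 totals. In the 17 YPD totals it ranged from 3.98 to 47.0 RPM with a median of 6.49 RPM. The 47.0 RPM belonged to the library labelled FAS1-GFP total 2, and the next highest YPD total had 15.6 RPM. In SD-trp, the TRP2-GFP totals had 4.02 and 4.09 RPM and the TRP3-GFP total had 49.9 RPM. The libraries of this medium thus lay near the low end of the YPD range and just above its high end. The SD-arg total had 103.5 RPM (95% Poisson interval 97.4 to 109.9, which covers counting error only). In fatty acid medium, FAS1dMPT-GFP had 56.5 and 71.0 RPM and FAS1-GFP FAS2dMPT had 11.1 and 38.3 RPM. The SD-arg total and the TRP3-GFP total were above every YPD total. So were 2 of the 4 fatty acid totals, or 3 of 4 when the library labelled FAS1-GFP total 2 was left out.

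AGP1 had the next widest span, 11.9 times. Its YPD totals ran from 13.7 to 107.6 RPM with a median of 21.6 RPM, and the highest was again the library labelled FAS1-GFP total 2, followed by one at 64.1 RPM. The SD-trp totals had 21.4 and 22.9 RPM in TRP2-GFP and 111.4 RPM in TRP3-GFP. AGP1 reached 164.0 RPM in the SD-arg total, above all other totals. Fatty acid medium gave 96.6 and 102.1 RPM in FAS1dMPT-GFP and 28.8 and 50.2 RPM in FAS1-GFP FAS2dMPT. None of these 4 was above all YPD totals, and 2 were once the library labelled FAS1-GFP total 2 was left out. GAP1 and AGP1 thus ordered the libraries alike: the SD-arg, TRP3-GFP and FAS1dMPT-GFP totals and FAS1-GFP total 2 were the highest 5 for both.

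**Figure D1:**
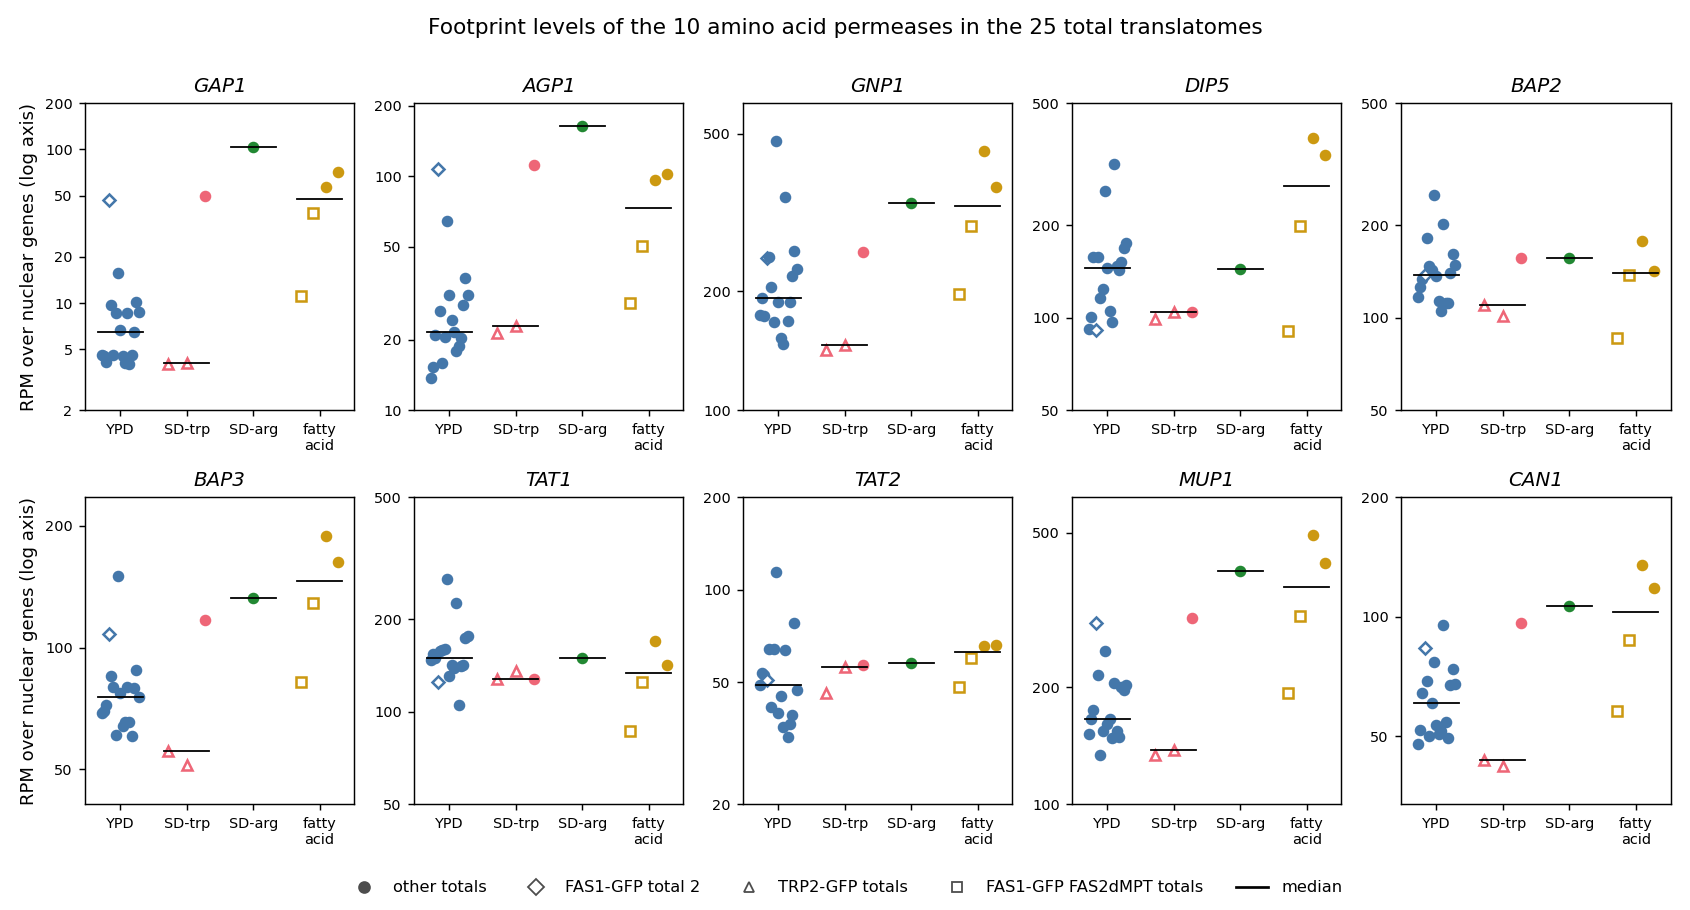
Level of each permease in the 25 totals, in RPM over nuclear genes on a log axis, by medium, with 1 point per library, a line at the median, and open symbols for FAS1-GFP total 2, the TRP2-GFP totals and the FAS1-GFP FAS2dMPT totals. GAP1 and AGP1 spread over the widest range, with the SD-arg library highest at 103.5 and 164.0 RPM, and BAP2 has medians of 137.5 RPM in YPD and 139.9 RPM in fatty acid medium.

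GNP1, the paralog of AGP1, spanned only 3.37 times. It ran from 147.4 to 478.5 RPM in YPD with a median of 191.8 RPM, and had 142.0, 146.3 and 251.9 RPM in the TRP2-GFP and TRP3-GFP totals, 335.0 RPM in SD-arg, and 452.0, 366.8, 197.4 and 291.7 RPM in fatty acid medium. Apart from the TRP2-GFP totals, just under the lowest YPD total, all of these lay within the YPD range. The 478.5 RPM belonged to GUS1-GFP total 1, and the next highest YPD total had 345.7 RPM, below both FAS1dMPT-GFP totals. DIP5 ran from 91.6 to 318.0 RPM in YPD with a median of 145.1 RPM. It had 98.9, 104.7 and 104.9 RPM in SD-trp and 144.6 RPM in SD-arg. In fatty acid medium the strains parted, with 384.7 and 338.4 RPM in FAS1dMPT-GFP, above every YPD total, and 90.6 and 199.1 RPM in FAS1-GFP FAS2dMPT, of which the first was below every YPD total. DIP5 was the 1 broad permease for which the TRP3-GFP total resembled the TRP2-GFP totals.

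The neighbours BAP2 and TAT1 kept within a narrow span of levels, 2.91 and 3.11 times over the 25 totals. BAP2 had a median of 137.5 RPM in YPD (105.3 to 250.2 RPM), 101.5 to 156.3 RPM in SD-trp, 156.6 RPM in SD-arg and 85.9 to 177.5 RPM in fatty acid medium. TAT1 had a median of 150.0 RPM in YPD (105.1 to 269.9 RPM), 128.0 to 136.1 RPM in SD-trp, 149.5 RPM in SD-arg and 86.9 to 170.0 RPM in fatty acid medium. For both, 3 of the 4 fatty acid totals lay within the YPD range and FAS1-GFP FAS2dMPT total 1 lay below it. TAT2, the tryptophan permease, had a median of 48.8 RPM in YPD (33.0 to 114.0 RPM), and in SD-trp, the medium without its substrate, it had 46.1, 55.9 and 56.8 RPM. Its SD-arg total had 57.8 RPM and its fatty acid totals 48.1 to 66.0 RPM, so that every total outside YPD lay within the YPD range. The highest YPD total of BAP2, TAT1 and TAT2 was GUS1-GFP total 1. The next highest, with 202.6, 226.6 and 77.7 RPM, were still above all totals outside YPD.

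BAP3 did not follow its paralog BAP2. In YPD it ran from 60.4 to 150.6 RPM with a median of 75.6 RPM. The TRP2-GFP totals, at 55.6 and 51.2 RPM, were below all YPD totals, and the TRP3-GFP total had 116.8 RPM and the SD-arg total 132.5 RPM. Fatty acid medium gave 188.7 and 163.1 RPM in FAS1dMPT-GFP, above all YPD totals, and 82.3 and 129.0 RPM in FAS1-GFP FAS2dMPT, within them. The 150.6 RPM in YPD belonged to GUS1-GFP total 1, and the next highest YPD total had 107.9 RPM. The TRP3-GFP and SD-arg totals and FAS1-GFP FAS2dMPT total 2 were above that.

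MUP1, the methionine permease, had more fatty acid totals above all 17 YPD totals, 3 of 4, than any other member. GAP1 also had 3 without FAS1-GFP total 2, and so did BAP3 without GUS1-GFP total 1. Its YPD totals ran from 133.8 to 293.6 RPM with a median of 166.0 RPM. It had 133.9 and 138.3 RPM in the TRP2-GFP totals, 302.2 RPM in the TRP3-GFP total and 398.8 RPM in SD-arg. In fatty acid medium it had 494.8, 418.7, 193.4 and 304.8 RPM, and 3 of these 4 totals were above every YPD total. CAN1, the arginine permease, had a median of 60.8 RPM in YPD (47.8 to 95.4 RPM) and 106.5 RPM in SD-arg, the medium without its substrate. It had 43.7, 42.2 and 96.6 RPM in SD-trp and 134.7, 118.3, 57.9 and 87.6 RPM in fatty acid medium. The SD-arg and TRP3-GFP totals of CAN1 were above every YPD total and the TRP2-GFP totals below them.

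Levels of different genes were compared per kilobase of coding length. By median RPM per kb in YPD totals the order was GNP1 (96.3), MUP1 (96.2), TAT1 (80.7), DIP5 (79.4), BAP2 (75.1), BAP3 (41.7), CAN1 (34.3), TAT2 (27.4), AGP1 (11.3) and GAP1 (3.59). The ranges over libraries of neighbours in this order overlapped. Within a library BAP2 was above BAP3 and AGP1 above GAP1 in 17 of 17 YPD totals, TAT2 above AGP1 in 16 and BAP3 above CAN1 in 15. GNP1 was above MUP1 in 7 of 17, and TAT1 above DIP5 and DIP5 above BAP2 in 9 of 17 each, so these neighbours had no steady order. In the SD-arg total MUP1 led with 231 RPM per kb, ahead of GNP1 with 168, and AGP1 stood in the third place with 86.2, level with BAP2 at 85.6. GAP1 had 57.2 RPM per kb there and TAT2, the lowest, had 32.5. In fatty acid medium the medians were highest for MUP1 (210 RPM per kb), GNP1 (165) and DIP5 (147) and lowest for GAP1 (26.2). Together the 10 genes took 815 to 1927 RPM in YPD totals, with a median of 969 RPM, against 784, 803 and 1375 RPM in SD-trp, 1749 RPM in SD-arg and 882 to 2221 RPM in fatty acid medium.

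**Figure D2:**
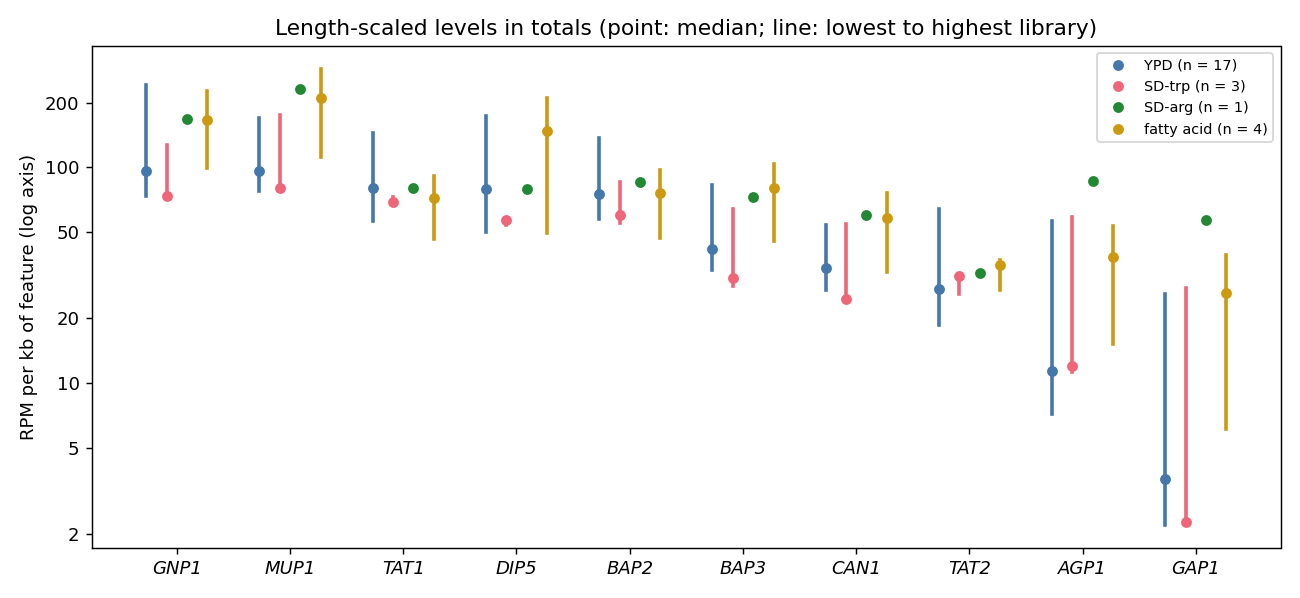
Level of each permease in the totals per kilobase of coding length, as RPM per kb on a log axis, with a point at the median of each medium and a line from the lowest to the highest library, in the order of the YPD medians. The order in YPD runs from GNP1 at 96.3 down to GAP1 at 3.59 RPM per kb, and in SD-arg AGP1 stands at 86.2 RPM per kb beside BAP2 at 85.6.

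Differences between media were tested with limma on log2 of scaled RPM plus 1, over all features that averaged 5 RPM or more, and a gene was called at an adjusted p below 0.05 with a log2 difference of at least 1. The added 1 understates the change of a gene at a low level such as GAP1. Between fatty acid medium and YPD, 1 of the 10 permeases was called, GAP1, where 7.47% of the 5017 features tested were called, 302 higher (6.02%) and 73 lower (1.46%). GAP1 rose by 1.92 ± 0.49 (log2 difference ± SE, 4 and 17 totals, limma adjusted p = 0.0035), and its median in fatty acid medium was 7.30 times that in YPD. All 39 settings tried kept the call, with differences of 1.62 to 2.99. The median difference of the 10 was 0.33, against 0.016 over all features tested, and 7 of the 10 were above 0.

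Another 4 members had an adjusted p below 0.05 without the fold that a call required. Many of all features passed this looser cut-off: the kinase gene NPR1, at an unadjusted limma p of 0.012, had an adjusted p of 0.040. MUP1 differed by 0.59 ± 0.17 (limma adjusted p = 0.011) and BAP3 by 0.50 ± 0.17 (0.024), both higher in fatty acid medium. TAT1 differed by −0.58 ± 0.15 (0.0054) and BAP2 by −0.40 ± 0.14 (0.036), both lower. The scaling enters the last values: without the trimmed-mean scaling, that is with deposited RPM as they are, the median of all features shifted by 0.34, and TAT1 had −0.24 and BAP2 −0.06. AGP1 differed by 0.93 ± 0.38 (0.064), DIP5 by 0.34 ± 0.28 (0.38), CAN1 by 0.32 ± 0.17 (0.14), GNP1 by 0.27 ± 0.19 (0.32) and TAT2 by −0.07 ± 0.18 (0.83). None of these 5 passed the limma test. Within both paralog pairs 1 gene had the higher value, AGP1 over GNP1 and BAP3 over BAP2, and the difference within a pair was not tested.

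The call for AGP1 depended on single libraries. Without the library labelled FAS1-GFP total 2 its difference was 1.04 (limma adjusted p = 0.017), and without FAS1-GFP FAS2dMPT total 1 it was 1.23 (0.033), both called. When both FAS1-GFP FAS2dMPT totals were left out, 4 members were called, GAP1 at 2.68, AGP1 at 1.59 (0.031), DIP5 at 1.03 (0.028) and MUP1 at 1.02 (0.0016), with 5.82% of features called. With FAS1-GFP total 2 left out as well, 3 were called, with GAP1 at 2.83, AGP1 at 1.70 and MUP1 at 1.05, DIP5 at 0.98, and 6.74% of features. All 4 fatty acid tables list the smaller coordinate of a gene first, a layout found in 6 of the 17 YPD totals, and against those 6 alone GAP1 had 2.14 ± 0.40, also called.

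**Figure D3:**
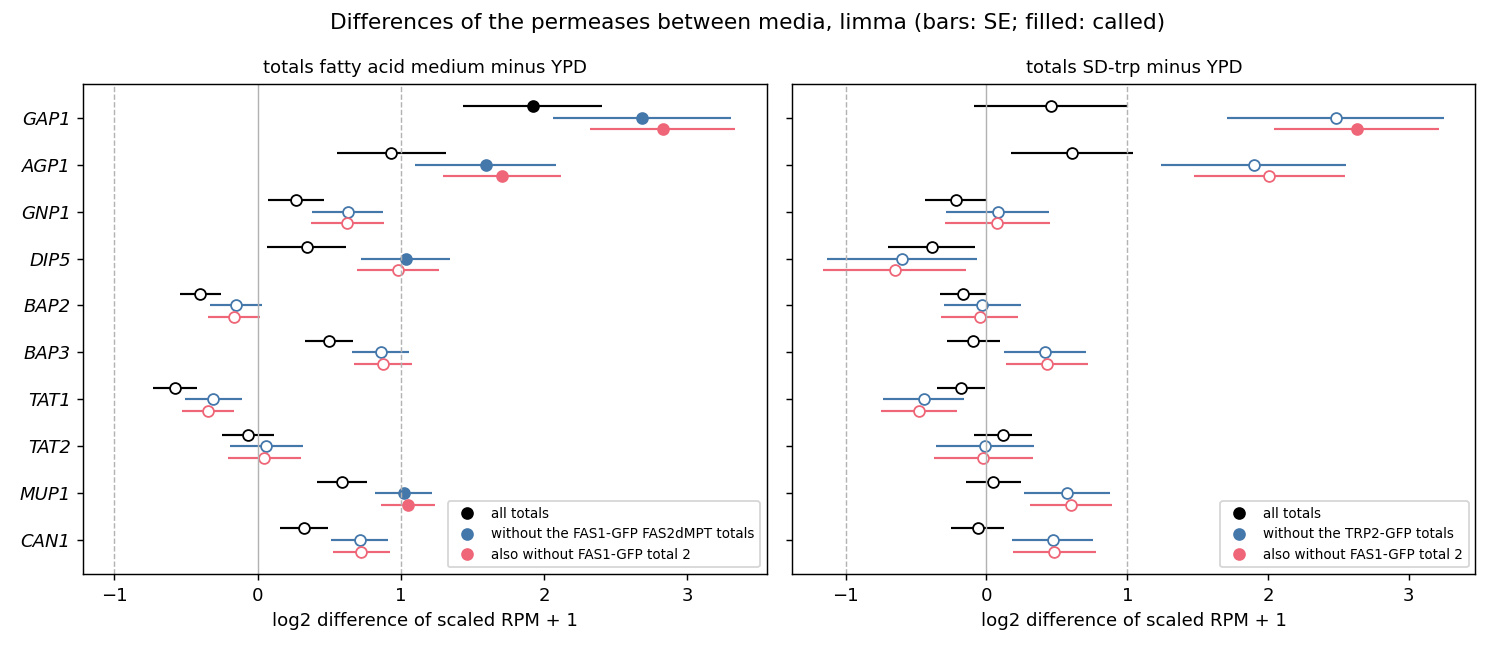
Log2 difference of each permease from YPD in fatty acid medium (left) and SD-trp (right), on scaled RPM plus 1, with bars of 1 SE from limma, filled points for called differences, dashed lines at a log2 difference of 1 in each direction, and colours for fits that leave libraries out. With all totals GAP1 at 1.92 in fatty acid medium is the 1 called point, and in SD-trp GAP1 moves from 0.46 to 2.63 as the TRP2-GFP totals and FAS1-GFP total 2 are left out.

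In the SD-arg total, GAP1 and AGP1 were 2 of 10 members that were both at least 1 log2 unit from the mean of the YPD totals and outside their range, where 4.13% of 4958 features were, 3.23% higher and 0.908% lower. GAP1 stood 3.54 above that mean and AGP1 2.47. MUP1 followed with 0.99, then CAN1 with 0.63, BAP3 with 0.62 and GNP1 with 0.51. TAT2 (0.04), BAP2 (−0.01), DIP5 (−0.12) and TAT1 (−0.20) were near the YPD mean. MUP1 came past the threshold with 1.15 when libraries were scaled to equal totals, and when any 1 of 5 YPD totals was left out, FAS1-GFP total 2 among them. One library gives no test of these differences.

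Between SD-trp and YPD none of the 10 permeases was called by limma, nor any of the 5017 features (0.0%), of which 397 had an unadjusted p below 0.05, none of them a permease. GAP1 differed by 0.46 ± 0.55 (limma adjusted p = 0.80), AGP1 by 0.61 ± 0.43 (0.65) and the tryptophan permease TAT2 by 0.12 ± 0.21 (0.88). The SD-trp libraries disagreed among themselves, as their levels show. Without the TRP3-GFP total GAP1 had −0.55 and AGP1 −0.04. Without the TRP2-GFP totals GAP1 had 2.48 and AGP1 1.90, and neither was called. When FAS1-GFP total 2 was left out too, GAP1 was called at 2.63 ± 0.59 (limma adjusted p = 0.016) with 1.91% of features called, and AGP1 had 2.01 (0.051) and TAT2 −0.02. That value rests on 1 SD-trp library, assumed to vary like those of the other media.

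Set against fatty acid medium, SD-trp gave no called permease with limma, where 7.57% of features were called, 126 higher and 254 lower in SD-trp. In this comparison 3 permeases, BAP3, MUP1 and GAP1, had an unadjusted p below 0.05. Many of all features did too: SSY5, at an unadjusted limma p of 0.048, had an adjusted p of only 0.147. GAP1 differed by −1.46 ± 0.67 (limma adjusted p = 0.125), MUP1 by −0.54 ± 0.24 (0.110) and AGP1 by −0.32 ± 0.53 (0.71). GAP1 was called at −2.47 (0.0050) without the TRP3-GFP total and at −1.95 (0.049) without FAS1-GFP FAS2dMPT total 1, and had 0.56 without the TRP2-GFP totals.

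Other measures moved with GAP1 and AGP1 in part of the libraries, among them ARG1, which was chosen after its values were seen. ARG1, an enzyme of arginine synthesis, had 26.0 to 1104 RPM in YPD totals with a median of 51.9 RPM, the highest being FAS1-GFP total 2. The next were the MES1-GFP totals with 193.2 and 205.3 RPM of ARG1, whose GAP1, at 4.52 and 4.08 RPM, was near its lowest. It had 174.6 and 149.6 RPM in the TRP2-GFP totals, 1133 RPM in the TRP3-GFP total, 1308 RPM in SD-arg, and 969, 1090, 140.9 and 528 RPM in fatty acid medium and so stood in the order of GAP1 among the fatty acid totals. GCN4, the activator of amino acid synthesis genes, did not share that order: its highest total, 319.4 RPM, was GUS1-GFP total 1, and FAS1dMPT-GFP had 52.9 and 61.9 RPM. In SD-trp and fatty acid medium the mating-type genes moved with GAP1 too. There the totals with the higher MATalpha sum had 4.02, 4.09 and 11.1 RPM of GAP1 and those with the higher MATa sum 38.3 to 71.0 RPM. In YPD the 3 totals with the higher MATalpha sum had 4.13 to 9.68 RPM of GAP1 and the 14 others 3.98 to 47.0 RPM, with medians of 4.61 and 6.60 RPM. The part of the strain background in the differences between media was not tested.

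**Figure D4:**
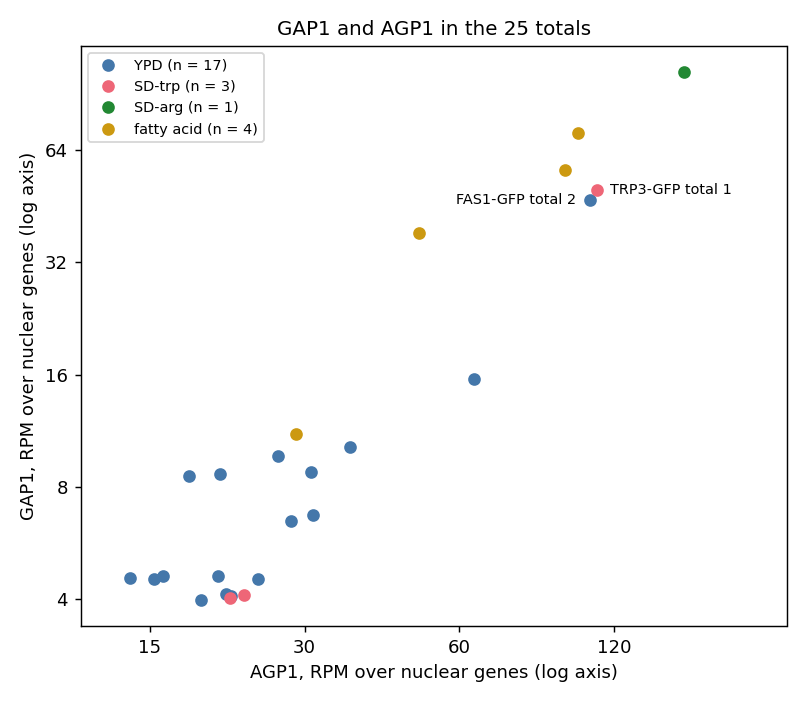
Level of GAP1 (vertical axis) against AGP1 (horizontal axis) in the 25 totals, both in RPM over nuclear genes on log axes, with 1 point per library coloured by medium. The SD-arg, TRP3-GFP and FAS1dMPT-GFP totals and the YPD library labelled FAS1-GFP total 2 lie apart at the upper right, and the TRP2-GFP totals lie among the YPD totals at about 4 RPM of GAP1.

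Likeness of pattern was measured as Pearson's r of log2 scaled RPM plus 1 over the 25 totals, across 5020 genes. These values describe libraries that share media and strains, and carry no test. The genes most like GAP1 were ITR1, a myo-inositol transporter (r = 0.95), and ARG56, which codes for enzymes of arginine synthesis (0.95). AGP1 was most like the choline transporter HNM1 (0.92) and GAP1 (0.92). MUP1 was most like CDS1, an enzyme of phospholipid synthesis (0.92), and SAM3, an S-adenosylmethionine permease (0.91), and CAN1 was most like MUP1 (0.90) and CDS1 (0.86). BAP3 was most like LCB2, a subunit of the enzyme that starts sphingolipid synthesis (0.90), and MUP1 (0.88).

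The other members had partners of their own. BAP2 was most like ZRC1, a vacuolar zinc transporter (0.95), and OPT1, an oligopeptide transporter (0.90), and TAT1 was most like TCB2 (0.93) and MKC7 (0.91). GNP1 had PEP1, a vacuolar sorting receptor (0.89), and TNA1, the nicotinic acid permease (0.89). DIP5 had the uridine permease FUI1 (0.86) and CWH43 (0.85), and TAT2 had MTC6 (0.83) and YEH2 (0.80). Among members, r was 0.91 for GAP1 and MUP1, 0.82 for GAP1 and BAP3, 0.82 for BAP2 and TAT1, −0.01 for GAP1 and BAP2 and −0.38 for GAP1 and TAT1. GNP1 had 0.83 with BAP3, 0.77 with CAN1 and 0.71 with MUP1, and 0.60 with both GAP1 and BAP2.

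The IPs asked a different question, whether ribosomes on a permease mRNA came down with a tagged subunit more or less often than ribosomes at large. No permease is a tagged subunit or a stated partner of one. In the 7 YPD strains with 2 replicates none of the 10 was called by limma between IP and total, where 5.76% of 5153 features were called, 282 higher and 15 lower. Of the 10, TAT2 alone had an unadjusted p below 0.05, and differed by 0.43 ± 0.15 (limma adjusted p = 0.017), short of the fold. In its pairs 14 of all 17 YPD values were above 0, with a range of −0.31 to 1.35. Most features tested passed an adjusted p of 0.05 without the fold here: GAT1, at an unadjusted limma p of 0.027, had an adjusted p of 0.046. GAP1 differed by 0.50 ± 0.29 (0.14) and AGP1 by 0.26 ± 0.19 (0.26). With the strain FAS1-GFP left out TAT2 had 0.38 (0.057), GAP1 0.58 (0.075) and AGP1 0.34 (0.11), and none was called. Without any scaling, which shifted the median of all features by −0.39, AGP1 had −0.14 and 129 features were called higher and 585 lower.

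Pairs of GAP1 libraries spread widely. MES1-GFP gave the highest YPD values, log2 ratios of 2.41 and 2.80, from 4.52 RPM in the total to 34.7 RPM in the IP and from 4.08 to 42.0 RPM. ARC1-GFP gave 1.12 and 1.59 and FAS2-GFP 0.70 and 1.97. In the FAS2-GFP pair at 1.97 the MATa sum went from 3.81 RPM in the total to 202.6 RPM in the IP. FAS1-GFP, whose total 2 stands apart, gave 1.23 and −1.14. In its pair at −1.14 the MATalpha sum went from 3.82 RPM in the total to 721 RPM in the IP. Both pairs entered the YPD comparison, and the part of these background differences in the ratios was not tested. GAP1 was listed at 0 in PFK2-GFP IP 1, the shallowest library with 0.544 M reads, where 3 reads would make 6.78 RPM. In all, 12 of the 17 YPD pairs of GAP1 were above 0, and so were 12 of those of AGP1, against 4 of 17 for DIP5.

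In TRP2-GFP, 1 of the 10 permeases was called by limma between IP and total, where 4.13% of features were called, 100 higher and 113 lower. AGP1 had 21.4 and 22.9 RPM in the totals and 121.1 and 96.6 RPM in the IPs, a difference of 1.78 ± 0.51 (limma adjusted p = 0.043). GAP1 had 4.02 and 4.09 RPM in the totals and 43.5 and 33.2 RPM in the IPs, a difference of 2.54 ± 0.77 (0.052), with log2 ratios of 2.77 and 2.30. The totals of GAP1 rest on 11 and 12 reads. The call for AGP1 was lost whenever 1 of the 4 libraries was left out, at differences of 1.56 to 1.99 (adjusted p 0.139 to 0.229). Over 13 settings, the main fit included, AGP1 was called in 7 and GAP1 in 5. In the same strain the summed MATa genes went from 8.41 and 15.7 RPM in totals to 514 and 518 RPM in IPs, and LYS2 from 5.12 and 7.85 RPM to 306.5 and 343.3 RPM. In TRP3-GFP, grown in the same medium, the log2 ratio was 0.30 for GAP1 and 0.01 for AGP1. The part of the strain difference between the TRP2-GFP totals and IPs in the permease values was not tested.

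**Figure D5:**
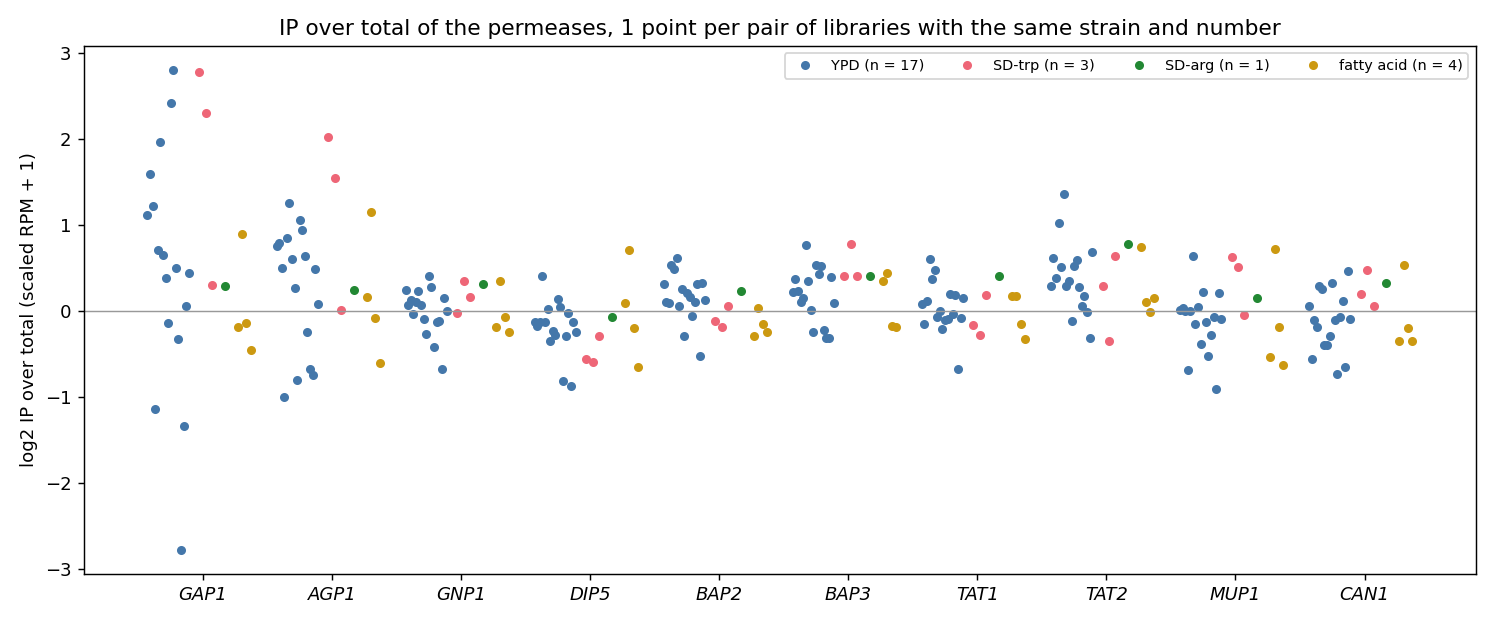
Log2 ratio of IP over total for each permease in the 25 pairs of libraries, on scaled RPM plus 1, with 1 point per pair coloured by medium. The GAP1 pairs of TRP2-GFP at 2.77 and 2.30 and of MES1-GFP at 2.41 and 2.80 lie highest, and the lowest point, at −2.77, is the PFK2-GFP pair whose IP lists GAP1 at 0.

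In the fatty acid strains no permease was called by limma between IP and total, nor any other feature (0.0%), with 435 features and none of the 10 at an unadjusted p below 0.05. GAP1 had 53.0, 55.4, 12.4 and 61.5 RPM in the IPs, a difference from the totals of 0.03 ± 0.54, and AGP1 differed by 0.16 ± 0.36. The values of GAP1 were −0.14 and −0.45 in FAS1dMPT-GFP and −0.19 and 0.89 in FAS1-GFP FAS2dMPT. The single SD-arg pair gave 103.5 RPM in the total and 138.1 RPM in the IP for GAP1, a log2 ratio of 0.29.

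The difference between strains in IP over total was tested directly. For TRP2-GFP against the YPD strains no permease was called by limma, where 0.136% of features were, and 2 of the 10 had an unadjusted p below 0.05. GAP1 had 2.04 ± 0.82 (limma adjusted p = 0.36) and AGP1 1.52 ± 0.55 (0.32). Each was called in 2 of 42 settings, with library weights and with the replicate number as a block. For the fatty acid strains against the YPD strains no permease was called, where 0.0388% of features were, and none had an unadjusted p below 0.05. GAP1 had −0.47 ± 0.62 (0.84) and AGP1 −0.10 ± 0.41 (0.95).

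Genes that act around these permeases were followed in the same comparisons. Of 13 genes of SPS amino acid sensing, none was called by limma between fatty acid medium and YPD, with a median difference of 0.21. STP2 differed by 0.48 (limma adjusted p = 0.00064), short of the fold, SSY1 by 0.50 (0.25), PTR3 by 0.34 (0.075), STP1 by 0.21 (0.28) and the protease SSY5 by −0.22 (0.16). Of 14 tested genes under nitrogen catabolite repression, 3 rose and none fell: UGA1, an enzyme of GABA use (1.73), and the ammonium permeases MEP2 (2.16) and MEP1 (1.23). MEP2 and MEP1 averaged 2.99 and 4.12 RPM in YPD totals and were tested only because of higher totals elsewhere, and among the 12 genes of this list that averaged 5 RPM or more in YPD 1 rose, UGA1. The activator GAT1 differed by 0.85 (0.0082) and GLN3 by 0.16 (0.43). MEP2 had 5.97 to 31.7 RPM in the fatty acid totals and 0.838 to 11.6 RPM in YPD totals, so that the ranges overlapped.

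Of 19 genes of permease exit from the endoplasmic reticulum, sorting and ubiquitylation, 1 rose, the arrestin-like adaptor ROG3 (1.63, limma adjusted p = 0.00080). The chaperone SHR3 differed by −0.15 (0.56) and the kinase NPR1, which keeps Gap1 at the surface, by 0.30 (0.040). Of 8 tested genes on the list of other amino acid permeases, 1 rose, AGP2 (1.10, limma adjusted p = 0.012), and none of 10 vacuolar amino acid transporters was called. Not all genes on that list carry amino acids, HNM1 being a choline transporter. Among 34 other transporters of the plasma membrane 7 rose and 2 fell, led by the polyamine exporters TPO4 (4.05) and TPO2 (1.98) and the sulfate permease SUL2 (2.26), with the phosphate transporter PHO84 (−3.26) and the copper transporter CTR1 (−1.92) lower. SUL2 averaged 4.58 RPM in YPD totals, and without it 6 of 33 rose. The permeases' share of calls, 1 of 10, stood beside 1 of 8 and 9 of 34 (SUL2 included) in these lists. Over all features tested the share was 7.47%.

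In the SD-arg total, 3 of the 8 genes on the list of other amino acid permeases were past the fold and outside the YPD range: AGP2 at 1.18 and SAM3 and HNM1, each 1.41 above the YPD mean. HNM1, on that list as a relative of the others, carries choline, and SAM3 carries S-adenosylmethionine. None of the 13 SPS genes and 1 of 12 genes under nitrogen catabolite repression, UGA1 (1.28), were. Of the sorting list the eisosome gene LSP1 (1.21) was past it. Of 34 other transporters 7 were higher, led by SUL2 (2.42), ITR1 (2.34) and HXT7 (2.14), and PHO84 was lower by far (−7.06). By the same rule 3.23% of all features tested were higher and 0.908% lower. SUL2 averaged 4.58 RPM in YPD totals and was tested only because of the SD-arg total, which had 24.9 RPM. Between SD-trp and YPD no gene of any of these lists was called. Between SD-trp and fatty acid medium ROG3, its paralog ROD1, MEP2, UGA1, TPO4, TPO2 and the iron permease FTR1 were lower in SD-trp by the limma test, and PHO84 and CTR1 higher. Over all features 7.57% were called in that comparison. MEP2 averaged 2.99 RPM in YPD totals and had 1.36 to 4.50 RPM in SD-trp totals, and was tested only because of the fatty acid totals. Between IP and total in the YPD strains all genes called on these lists were higher in the IP: 1 of 13 of the SPS list, the sensor SSY1 (1.23, limma adjusted p = 0.00014), 2 of 20 of the sorting list with ROG3 (1.48), 3 of 16 under nitrogen catabolite repression with MEP2 (1.01) and 2 of 34 other transporters. Most calls over all features had that direction too, 282 higher and 15 lower, or 5.76% of 5153 features. MEP2 averaged only 2.99 RPM in YPD totals and was tested because of higher levels in other libraries.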

How the data were processed

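Values came from 50 tables per gene, 1 per library. The authors deposited RPM (reads scaled to a set library size), a unit read from the values because the tables have no header, and the submitters' processing notes name cutadapt 1.8.3. Aligner, counting rule, strand setting and build are not given in the labels or files. Reads were implied from the steps between low values, but only 13.4 to 75.6% of values came out whole (within 0.01), so no count test was run. In each library 28 mitochondrial features were left out and RPM was set over the nuclear features, which held 73.0 to 96.5% of totals and 37.6 to 94.1% of IPs.

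For tests, libraries were scaled by a trimmed mean of log ratios without weights (trim 0.3 and 0.05, 4997 of 6577 features), and log2 of scaled RPM plus 1 was fitted with limma 3.58.1 in R 4.3.3 (limma-trend), with Benjamini-Hochberg adjustment over all features that averaged 5 RPM or more. Totals were fitted with 1 mean per medium, and IPs and totals of the 10 replicated strains with 1 mean per strain and fraction. Printed levels are unscaled. The steps were tested on simulated data. Gene symbols were matched by locus tag to RefSeq (R64), 5919 of 6605 features; 1 listed gene found no match.

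Named genes were the 10 permeases, 9 regulators, up to 3 called genes in each direction per list and comparison of totals, and the 2 genes most correlated with each permease; ARG1 and GCN4 were chosen after their values were seen. The members and lists were chosen with earlier results of these data known. Replicate numbers were not taken to pair libraries, since correlations of deviations ran from 0.004 to 0.84. The alternatives were other scalings, pseudocounts and filters, library weights, a replicate block, and left-out libraries and strains. Intervals cover counting error only.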

Additional observations from a re-analysis of the deposited data

Results flagged for a closer look

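Of 20 groups of 4 IPs or totals in fatty acid medium that were examined for a library far from the others, 1 was marked. TAT1, the tyrosine and tryptophan permease, had 158.9 RPM in FAS1dMPT-GFP IP 1, and the nearest of the other 3 fatty acid IPs had 127 RPM, a gap of 0.841 of the group's whole range. Chance marks about 1 in 20 such groups.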

How the results depend on the processing

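Alternatives that leave out chosen sets of libraries or use the file layout were chosen after seeing the data. GAP1 in fatty acid medium against YPD kept its direction and call in all 39 settings. The causes of the changes given here were not tested. Among values of single permeases, 308 counted as unchanged under settings that change the processing or leave out chosen sets, and 777 with 1 library left out. Under the former 23 changed sign, 23 gained the call, 2 lost it and 5 moved. With 1 library left out 13 changed sign, 4 gained the call and 4 lost it. In the fits unchanged means the same direction and side of the threshold. For the SD-arg total it means a shift below the SD of the YPD totals, whatever the sign or side of the threshold. Low depth limits GAP1 most, with 11 reads in the shallowest totals.

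Counts are of permeases called, then of all features called. Weighting each library gave 50 features for SD-trp against YPD, 2 permeases for fatty acid medium against YPD, 5 and 821 for SD-trp against fatty acid medium, 2 and 718 for IP over total in TRP2-GFP and 9 features in the fatty acid strains. It gave 2 and 149 for TRP2-GFP against the YPD strains and 1 feature for the fatty acid strains against them. Equal totals gave 2 permeases for fatty acid medium against YPD (490 features higher, 43 lower), 1 and 616 for SD-trp against fatty acid medium (51 higher, 565 lower), 460 features for the IPs of YPD strains, 2 and 366 for those of TRP2-GFP (345 higher, 21 lower) and 12 for the difference of these. Without scaling these were 2 and 567 (529 higher, 38 lower), 2 and 706 (34 higher, 672 lower), 714, 0 and 10, and 3, with 1 for the fatty acid strains. Without a filter, TRP2-GFP had 0 permeases, 18 features differed between it and the YPD strains, and 1 between the fatty acid and the YPD strains, as with a pseudocount of 0.5.

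The replicate number was not taken to pair libraries, since deviations of IP and total of the same number correlated at 0.004 in ARC1-GFP, against 0.10 to 0.84 in the other 9 strains. With it as a replicate block, IP over total in TRP2-GFP gave 2 permeases, GAP1 and AGP1, and 628 features, and its difference from the YPD strains 2 and 88. The block gave 16 features in the fatty acid strains and 18 for their difference from the YPD strains, and no other count of permeases moved.

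A spread from the strains compared alone gave 2 and 709 in TRP2-GFP and 0 features for the fatty acid against the YPD strains. Strain means gave 100 features for SD-trp against fatty acid medium, and a term for the file layout 2 permeases in TRP2-GFP. Within the layout with the smaller coordinate first, 1 permease and 738 features were called between SD-trp and fatty acid medium. Without both TRP2-GFP totals that comparison called 15 features, and 29 without FAS1-GFP total 2 as well, where SD-trp against YPD called 1 and 96 and fatty acid medium against YPD 2 permeases. Without the FAS1-GFP FAS2dMPT totals the latter called 4 permeases, and 3 without FAS1-GFP total 2 as well, and SD-trp against fatty acid medium 1 and 236. Leaving out FAS1-GFP FAS2dMPT of number 2 gave 80 features between IP and total in fatty acid medium and 1 for the difference from the YPD strains, leaving out the strain 0 for that difference, and leaving out the strain FAS1-GFP 1.

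With 1 library left out, permeases called ranged from 1 to 2 for fatty acid medium against YPD (2 without FAS1-GFP total 2 or FAS1-GFP FAS2dMPT total 1) and from 0 to 2 for SD-trp against fatty acid medium (2 without FAS1-GFP FAS2dMPT total 1, 1 without the TRP3-GFP total), and were 0 for TRP2-GFP each time. Features ranged from 0 to 1 for SD-trp against YPD, 163 to 743 for SD-trp against fatty acid medium (the lowest without TRP2-GFP total 1, the highest without the TRP3-GFP total), 3 to 13 for TRP2-GFP, 0 to 118 for the fatty acid IPs (the highest without FAS1-GFP FAS2dMPT IP 2), 1 to 32 (without FAS1-GFP total 1) for TRP2-GFP against the YPD strains and 0 to 3 for the fatty acid against the YPD strains.

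These differences of single permeases, none of them called, changed sign. For SD-trp against YPD, GAP1 had −0.14 with library weights and −0.32 in the smaller-first layout, where AGP1 had −0.055, and TAT2 had −0.0091 without the TRP2-GFP totals and −0.023 without FAS1-GFP total 2 too. With 1 library left out GAP1 ranged from −0.55 to 0.97 and AGP1 from −0.037 to 0.94. For fatty acid medium against YPD, TAT2 had 0.23 with equal totals, 0.27 without scaling, 0.16 with weights, 0.029 with the layout term, 0.037 in the smaller-first layout, 0.061 without the FAS1-GFP FAS2dMPT totals and 0.047 without FAS1-GFP total 2 too. For SD-trp against fatty acid medium, GAP1 had 0.56 and AGP1 0.96 without the TRP2-GFP totals, and AGP1 ranged from −0.97 to 0.0085 with 1 library left out. Without scaling, AGP1 had −0.14 for the IPs of YPD strains and 0.19 for the fatty acid strains against them, and GAP1 −0.072 for the fatty acid IPs. There GAP1 had −0.24 and AGP1 −0.089 without FAS1-GFP FAS2dMPT of number 2, and −0.30 and −0.35 without that strain. With 1 library left out GAP1 ranged from −0.59 to 0.65 and AGP1 from −0.21 to 0.52 there, and GAP1 from −1.09 to 0.15 and AGP1 from −0.46 to 0.26 against the YPD strains.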
